A study of Mus musculus with 2 samples.

Results

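Immune checkpoints were followed as 10 genes, chosen by name and matched to the gene symbols of the count tables. They are the inhibitory receptors Pdcd1 (PD-1), Ctla4, Lag3, Havcr2 (TIM-3) and Tigit, the transcription factor Tox of exhausted T cells, the ectonucleotidase Entpd1 (CD39), and the ligands Cd274 (PD-L1), Pdcd1lg2 (PD-L2) and Lgals9 (galectin-9). All 10 were among the 32285 genes listed and all had UMIs in the cells used. The samples were subcutaneous tumors grown in female C57BL/6 mice of 6 to 8 weeks from 1000000 injected SO cells, a mouse ovarian cancer line made from p53-deficient ovarian cells with Hras and myc. WT mice carried normal Fbn1, and TSK mice were heterozygous for an intragenic duplication in Fbn1 that is carried in every tissue of the host but not in the injected cells. Tumors of several mice were pooled per genotype, so each genotype gave 1 library, and genotype, pool and library cannot be told apart. Counts of 3′ ends did not read the duplication and could not check the genotype.

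PD-1 on activated T cells binds PD-L1 and PD-L2 on other cells and dampens signaling from the antigen receptor. CTLA-4 competes with CD28 for CD80 and CD86, while LAG-3, TIM-3 and TIGIT bind MHC class II, galectin-9 and nectin-family proteins, among other ligands. Under lasting antigen exposure T cells carry several of these receptors together, with TOX. CD39 breaks down extracellular ATP on the way to adenosine, and interferon gamma induces PD-L1 in many cell types.

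After removal of barcodes found in both libraries, 1442 WT cells (median 7658.5 UMIs) and 2961 TSK cells (median 7302 UMIs) had at least 200 genes, at least 500 UMIs and at most 10% mitochondrial UMIs. Each cell was placed in a class by its marker UMIs, and names of classes say only which markers a cell carried. T cells, the class with Cd3d, Cd3e, Cd3g and the T cell receptor constant genes, numbered 441 in WT and 251 in TSK tumors, and all 6 of these markers were found in both. Within classes the libraries differed in depth: WT T cells had a median of 6853 UMIs and TSK T cells one of 3104, with a median ribosomal protein share of 9.85% and 13.7%. The part of these differences in any result below was not tested beyond the values given. With 1 library per genotype there was no test between genotypes. Levels are UMIs per 1000000 UMIs of a class (CPM) with exact Poisson 95% intervals, and ratios are log2 of TSK over WT with exact conditional intervals. All intervals cover counting error only.

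The receptor genes lie on several chromosomes of GRCm38, the build named in the labels as mm10. Pdcd1 (ENSMUSG00000026285) spans chr1:94038305-94052553 on the minus strand, Ctla4 chr1:60887000-60915832 on the plus strand and Lag3 chr6:124904361-124911705 on the minus strand. Havcr2 spans chr11:46454935-46481255 on the plus strand and Tigit chr16:43648867-43664146 on the minus strand. Tox, on the minus strand at chr4:6686353-6991557, spans 305205 bases, of which 7609 are exonic. The ligands Cd274 (chr19:29367455-29388095) and Pdcd1lg2 (chr19:29410919-29471161) are neighbours on the plus strand, 22823 bases apart. Entpd1 spans chr19:40612366-40741602 on the plus strand and Lgals9 chr11:78962974-78984946 on the minus strand. Antisense genes overlap Tox, Cd274 and Pdcd1lg2, and the reads of such pairs can be told apart only where strand was used in counting. Genes on the same strand overlap Ctla4 (Rpl18-ps1) and Entpd1 (Gm16027, Gm8783 and AC166063.1), and strand does not separate the reads of these.

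The bases before the start of each PD-1 ligand gene are shown because the levels of these neighbouring genes are compared in each class. They are from RefSeq (GRCm38.p6), plus strand, in lower case since no searched motif was found.
Cd274, chr19:29367188-29367437: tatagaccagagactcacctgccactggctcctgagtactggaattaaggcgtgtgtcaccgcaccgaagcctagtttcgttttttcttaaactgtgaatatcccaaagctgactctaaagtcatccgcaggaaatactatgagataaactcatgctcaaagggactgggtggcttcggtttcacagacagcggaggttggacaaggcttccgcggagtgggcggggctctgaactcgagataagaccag
Pdcd1lg2, chr19:29410669-29410918: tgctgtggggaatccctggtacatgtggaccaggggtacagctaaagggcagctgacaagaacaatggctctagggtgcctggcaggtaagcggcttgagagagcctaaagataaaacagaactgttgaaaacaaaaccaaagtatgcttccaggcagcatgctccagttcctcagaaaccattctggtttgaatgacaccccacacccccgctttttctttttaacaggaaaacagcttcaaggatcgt
The Cd274 stretch held 11 CpG dinucleotides and the Pdcd1lg2 stretch 3, at a GC content of 50.4% and 48.4%. The motifs searched on both strands were GAAA repeated after any 2 bases (the core of interferon-stimulated response elements), TTCNNNGAA (an interferon gamma activated site) and TGANTCA (an AP-1 site). Of 32851 promoters, 2.98% held the GAAA repeat, 7.02% TTCNNNGAA and 6.75% TGANTCA in the same window of 250 bases. Neither ligand promoter held any of the 3, which says only that these letters are not in this window. Among the 8 members with a promoter sequence, Lgals9 had 1 match to the GAAA repeat and Havcr2 1 match to TGANTCA.

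Most UMIs of the PD-1 and CTLA-4 receptor genes were in lymphocytes, while TIM-3 was shared with myeloid cells. T and NK cells gave 20.1% of the UMIs of all genes in the WT library but 1.95% of those in the TSK library, so shares are given for each library. They held 87.8% of Pdcd1 UMIs among WT and 79.6% among TSK cells, and for Ctla4 89.3% and 67.5%. For Tigit the shares were 82.8% and 58.1% and for Tox 61.8% and 53.3%. For Lag3 they held 76.8% among WT cells and 20.1% among TSK cells, where cancer cells held 37.6% of them. Of Havcr2 UMIs, 26.6% among WT and 14.9% among TSK cells were in T and NK cells, and 54.2% and 62.6% were in macrophages and monocytes. In cancer cells, which should lack PD-1, Pdcd1 had 0 UMIs in the 80 WT cells and 2 UMIs in the 828 TSK cells. Lag3 reached 131 UMIs in the 828 TSK cancer cells, but at a level of 5.03 CPM against 81.9 CPM in T cells of the same library.

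Per T cell UMI, Pdcd1 and Havcr2 were about 2-fold higher in the TSK library, while Lag3 and Tigit differed by less than their counting error. Pdcd1 had 328 UMIs in WT T cells (99.4 CPM, interval 89.0 to 111) and 160 UMIs in TSK T cells (190 CPM, 162 to 222), and the intervals did not overlap. The log2 ratio was 0.93 (0.65 to 1.21). Havcr2 had 134 UMIs (40.6 CPM, 34.0 to 48.1) among WT and 67 UMIs (79.5 CPM, 61.6 to 101) among TSK cells, and the log2 ratio was 0.97 (0.52 to 1.40). Ctla4 was higher in the TSK library by a smaller step, with 438 CPM (1444 UMIs, 415 to 461) in WT and 561 CPM (473 UMIs, 512 to 614) in TSK T cells and a log2 ratio of 0.36 (0.21 to 0.51). Lag3 was at 92.2 CPM (304 UMIs) among WT and 81.9 CPM (69 UMIs) among TSK cells, with an interval of the log2 ratio that included 0 (−0.17, −0.57 to 0.21). Tigit had 76 and 22 UMIs, and its log2 ratio of 0.18 had an interval from −0.58 to 0.88.

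**Figure D1:**
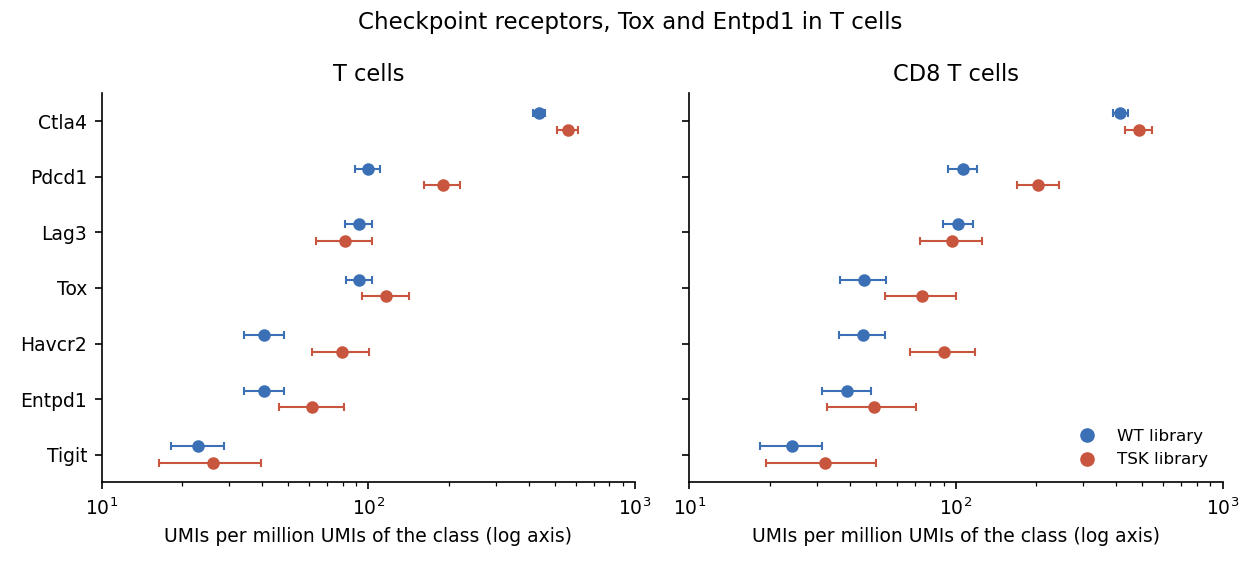
Levels of 7 members in T cells (left) and CD8 T cells (right), as UMIs per 1000000 UMIs of the class on a log axis, 1 point per library with its exact Poisson 95% interval. Pdcd1 (99.4 against 190 CPM in T cells) and Havcr2 (40.6 against 79.5 CPM) have intervals that do not overlap between libraries, and Lag3 and Tigit have intervals that do.

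The median gene in T cells had a log2 ratio of 0.15, and differences are read against that shift. Over the 10 members the median log2 ratio in T cells was 0.34. In T cells 9.8% of the 8809 genes with at least 20 UMIs were 2-fold or more apart between the libraries, in either direction, and none of the 10 members was. Pdcd1 at 0.93 and Havcr2 at 0.97 lay just below that limit. After scaling by the median of gene ratios, Pdcd1 still had a log2 ratio of 0.78 and Ctla4 one of 0.21. T cells of the TSK library also carried more marker UMIs of other classes: the 6 cancer cell markers summed to 11.5 CPM in WT and 96.1 CPM in TSK T cells with 3 of 6 at 0 in the latter, the macrophage markers to 17.0 and 38.0 CPM, and the neutrophil markers to 9.70 and 35.6 CPM. The part of these in the T cell values was not tested. Pdcd1 itself was at 1.32 CPM in TSK macrophages, while Havcr2 was at 68.7 CPM there, with an interval (59.7 to 78.7) that overlapped that of TSK T cells.

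Tox and Entpd1, which accompany the receptors in exhausted cells, gave less even values. Tox had 305 UMIs (92.5 CPM, 82.4 to 103) in WT and 98 UMIs (116 CPM, 94.4 to 142) in TSK T cells, and the interval of the log2 ratio just included 0 (0.33, −0.01 to 0.66). A single WT cell held 61 of the 305 Tox UMIs, and unassigned cells held 33.5% of Tox UMIs among WT and 31.6% among TSK cells. Entpd1 was at 40.6 CPM (134 UMIs) among WT and 61.7 CPM (52 UMIs) among TSK cells, and the log2 ratio was 0.60 (0.11 to 1.07). With cells thinned to 1000 UMIs the Entpd1 ratio was 1.25 on 12 and 16 UMIs.

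CD8 T cells, with Cd8a or Cd8b1 UMIs, were 314 among WT and 169 among TSK T cells, and Pdcd1 and Havcr2 had ratios near those of the whole class. The Ctla4 ratio was smaller, at 0.23 (0.04 to 0.42), and the median of all genes in this subset (0.16) lay within its interval. Pdcd1 was at 106 CPM (245 UMIs, 93.3 to 120) for WT and 203 CPM (120 UMIs, 169 to 243) for TSK cells, giving a log2 ratio of 0.94 (0.61 to 1.26). Havcr2 was at 44.6 CPM (103 UMIs) and 89.9 CPM (53 UMIs), a log2 ratio of 1.01 (0.50 to 1.5). Havcr2 was the 1 of 10 members 2-fold or more apart in CD8 T cells, where 11.4% of 7831 genes were, so the members' share was close to that of all genes. Tox was at 45.1 CPM (104 UMIs) and 74.6 CPM (44 UMIs), a log2 ratio of 0.73 (0.18 to 1.25), with 1 cell holding 23.1% of its WT and 1 cell 27.3% of its TSK UMIs. Lag3 was at 102 and 96.6 CPM, with an interval that included 0 (−0.08, −0.52 to 0.35). In this subset the median log2 ratio was 0.16 over all genes and 0.37 over the members. The size of the Pdcd1 difference moved with the ribosomal protein share of the cells, from 0.57 (158 and 97 UMIs) in cells at 10% or more to 2.13 (87 and 23 UMIs) in cells under 10%. For Havcr2 the ratio was 0.32 when cells were thinned to 1000 UMIs, on 12 and 8 UMIs, and 1.76 in cells under 10% ribosomal protein UMIs, on 49 and 10 UMIs.

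Shares of cells with a UMI depend on depth, and for Ctla4 the order of the shares differed from that of the levels. Ctla4 was at 413 CPM for WT and 485 CPM for TSK cells in the CD8 class, but the share with a UMI was 76.4% for WT and 68.6% for TSK cells. With each cell thinned to 1000 UMIs the Ctla4 shares were 28.0% and 35.7%. Lag3 was detected in 38.5% of WT CD8 T cells (121 of 314) and in 23.7% of TSK CD8 T cells (40 of 169). After the same thinning the Lag3 shares were 8.60% and 7.74%. Pdcd1 was detected in 33.8% of WT and 39.6% of TSK CD8 T cells, and after thinning in 9.55% and 17.3%. The same thinning left Pdcd1 in 0% of WT cancer cells and 0.122% of those from TSK tumors, which had medians of 35242.5 and 29995 UMIs before it.

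The inhibitory receptors were found together in the same CD8 T cells, and how often depended on depth. Of Pdcd1, Ctla4, Lag3, Havcr2 and Tigit, at least 3 had a UMI in 30.6% of WT (96 of 314) and 21.9% of TSK CD8 T cells (37 of 169). At least 4 had a UMI in 8.92% and 8.88%. At least 2 had a UMI in 57.0% of WT and 46.7% of TSK CD8 T cells. After thinning, the order for at least 2 receptors turned, to 8.92% (28 of 314 cells) for WT and 13.7% (23 of 168) for TSK. Among WT CD8 T cells with Pdcd1, 55.7% had Lag3 and 30.2% Havcr2, against 29.8% and 14.4% of those without Pdcd1. Among TSK CD8 T cells with Pdcd1, 40.3% had Lag3 and 35.8% Havcr2, against 12.7% for both genes in those without. Cells with Pdcd1 were also deeper, with medians of 7867 and 6419 UMIs among WT cells and 3537 and 3092.5 UMIs among TSK cells. In thinned WT cells Lag3 was in 3 of 30 cells with Pdcd1 (10.0%) and 8.45% of those without, and in thinned TSK cells in 5 of 29 (17.2%) and 5.76%.

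**Figure D2:**
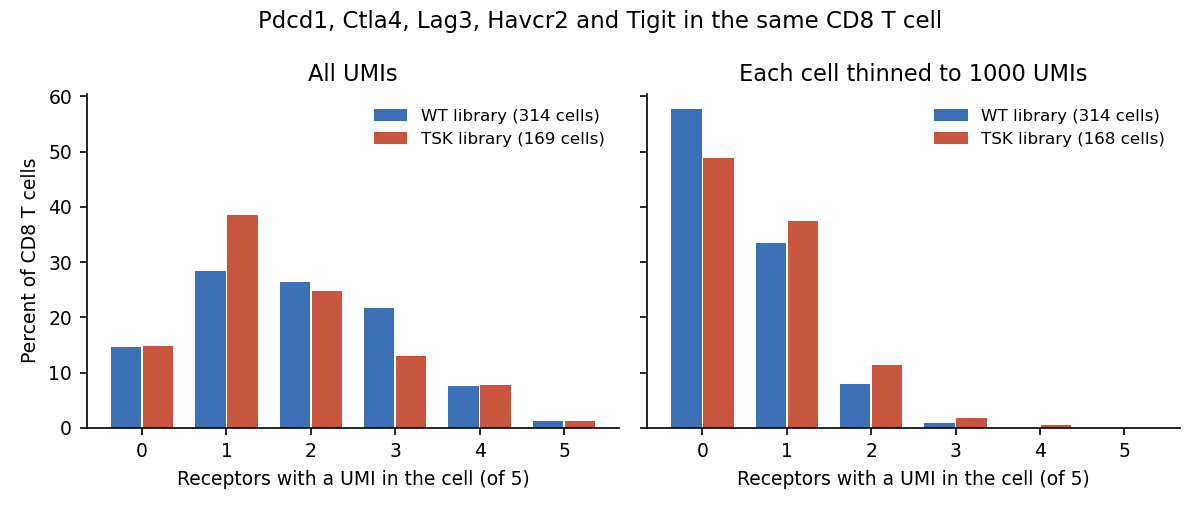
Percent of CD8 T cells by the number of inhibitory receptor genes with a UMI in the cell, of Pdcd1, Ctla4, Lag3, Havcr2 and Tigit, for all UMIs (left) and with each cell thinned to 1000 UMIs (right). Cells with 3 receptors are more frequent in the WT library with all UMIs (21.7% against 13.0%) and not after thinning (0.955% against 1.79%). The thinned values rest on 3 cells in each library, and their intervals overlap.

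Foxp3-positive T cells, which carry the master factor of regulatory T cells, numbered 12 in WT and 9 in TSK tumors, and Ctla4 was found in every cell of both. Cells with Foxp3 were placed here whether or not they had Cd8a UMIs. Cd8a had 0 UMIs in the WT and 8 UMIs (233 CPM) in the TSK cells of this group, and Cd4 had 12 and 3 UMIs. The part of this in the values was not tested. Ctla4 was at 1439 CPM (155 UMIs, 1221 to 1684) among WT and 2565 CPM (88 UMIs, 2057 to 3160) among TSK cells, and the log2 ratio was 0.83 (0.44 to 1.22). With upper limits of 10000 UMIs and genes per cell that ratio was 0.29, and in cells at 10% or more ribosomal protein UMIs it was 2.03. Tox went the other way than in CD8 T cells, at 1077 CPM (116 UMIs) and 437 CPM (15 UMIs), but 61 WT and 11 TSK UMIs came from 1 cell each. Pdcd1 had 4 UMIs in each library. CD4 T cells without Foxp3 UMIs numbered 48 and 17, with Pdcd1 at 125 CPM (46 UMIs) and 150 CPM (9 UMIs). Their Ctla4 was at 599 CPM (221 UMIs) and 434 CPM (26 UMIs), a log2 ratio of −0.46 (−1.11 to 0.13).

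NK cells were few, 18 for WT and 14 for TSK cells, and their checkpoint counts were low. Havcr2 had 0 UMIs in both, which allows up to 3 UMIs per library. Pdcd1 had 2 UMIs in WT NK cells and 0 in those from TSK tumors. Ctla4 had 23 UMIs, spread over 7 WT cells, and 11 UMIs from 2 TSK cells, 10 of them in a single cell. Tox had 3 and 15 UMIs, a ratio of 13.8 with a log2 interval from 1.96 to 6.21, and 9 of the 15 TSK UMIs were in 1 cell. Lgals9 had 11 UMIs for WT and 0 for TSK cells. The 6 T cell markers summed to 292 CPM in WT NK cells, with 2 at 0, and to 613 CPM in TSK NK cells, with none at 0. Foxp3 had 0 UMIs in WT and 3 UMIs (63.5 CPM) in TSK NK cells, and the part of these in the NK cell values was not tested.

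Over all cells, without regard to class, Pdcd1 and Ctla4 stood in the opposite order to T cells. Lag3 was also lower in the TSK library over all cells, while in T cells it differed by less than its counting error. Pdcd1 was at 22.0 CPM for WT and 4.40 CPM for TSK (log2 ratio −2.32), Ctla4 at 96.2 and 15.7 CPM (−2.62) and Lag3 at 24.0 and 7.62 CPM (−1.65). T cells were 30.6% of WT (28.2 to 33.0%) and 8.48% of TSK cells (7.50 to 9.54%), and cancer cells 5.55% and 28.0%.

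Myeloid cells held more than their share of PD-L1 transcripts. Macrophages and monocytes had 48.7% of Cd274 UMIs among WT and 44.4% among TSK cells, against 23.8% and 7.63% of the UMIs of all genes. Neutrophils had 10.6% and 19.7% of Cd274 UMIs, against 0.636% and 1.65% of those of all genes. In the WT library the levels of Cd274 were ordered neutrophils (1970 CPM), monocytes (354), dendritic cells (318), macrophages (193), T cells (88.2), endothelial cells (67.7), NK cells (61.4), fibroblasts (35.8) and cancer cells (19.8). Monocytes and dendritic cells overlapped in their intervals, as did T cells, endothelial cells and NK cells among themselves. In the TSK library neutrophils (442 CPM) and dendritic cells (358) overlapped, and cancer cells were again the lowest of these classes, at 6.49 CPM. The 194 TSK neutrophils that lay in the neutrophil cluster had Cd274 at 711 CPM (309 UMIs), above the upper end of the dendritic cell interval (525 CPM). T cells themselves carried Cd274 at 88.2 CPM (291 UMIs) among WT and 83.0 CPM (70 UMIs) among TSK cells (−0.09, −0.48 to 0.29).

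**Figure D3:**
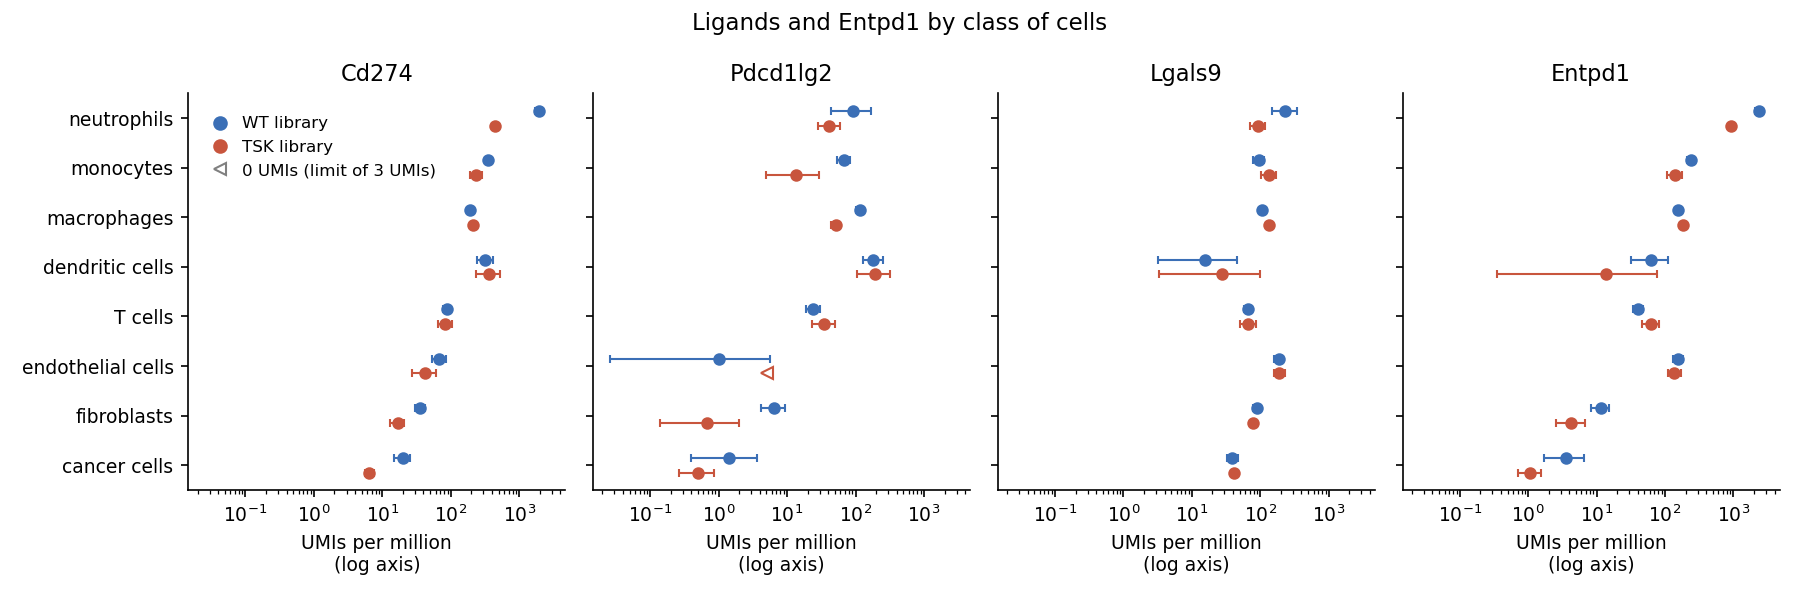
Levels of Cd274, Pdcd1lg2, Lgals9 and Entpd1 in 8 classes of cells, as UMIs per 1000000 UMIs of the class on a log axis, with exact Poisson 95% intervals, and an open triangle at the level of 3 UMIs where a library had 0 UMIs. Cd274 and Entpd1 are highest in neutrophils in both libraries, and the step between libraries is widest there for Cd274 (1970 against 442 CPM).

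In macrophages, the class of C1qa, C1qb, C1qc, Adgre1, Mrc1 and Csf1r, the PD-1 ligands parted: Pdcd1lg2 was lower in the TSK library while Cd274 was near level. This contrast was not kept with upper limits of 10000 UMIs and genes per cell, as given below. Pdcd1lg2 had 322 UMIs in 209 WT macrophages (114 CPM, 102 to 128) and 156 UMIs in 372 TSK macrophages (51.3 CPM, 43.6 to 60.0). The intervals did not overlap and the log2 ratio was −1.16 (−1.44 to −0.88). Cd274 was at 193 CPM (542 UMIs, 177 to 209) for WT and 213 CPM (647 UMIs, 197 to 230) for TSK cells, giving a log2 ratio of 0.14 (−0.02 to 0.31). Of the 6 members with at least 20 UMIs in macrophages, Pdcd1lg2 was the 1 that was 2-fold or more apart, against 11.7% of 10233 genes. The median log2 ratio there was 0.21 over all genes and 0.18 over these members. Entpd1 was at 155 and 181 CPM (0.22, 0.04 to 0.41), Lgals9 at 107 and 134 CPM (0.32, 0.10 to 0.54) and Havcr2 at 53.3 and 68.7 CPM (0.37, 0.06 to 0.68), and the median of all genes lay within each of these intervals. Havcr2 and Lgals9 turned below 0 under other settings, at −0.67 with upper limits of 10000 UMIs and genes for Havcr2 and −0.51 in cells at 10% or more ribosomal protein UMIs for Lgals9.

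The size of the Pdcd1lg2 difference in macrophages changed with the depth of the cells used. With upper limits of 10000 UMIs and genes per cell, which left 85 WT and 261 TSK macrophages, its log2 ratio was −0.20 on 27 and 74 UMIs, and with each cell thinned to 1000 UMIs it was −0.40 on 23 and 30 UMIs. The same upper limits gave −0.64 for Cd274, so under them Cd274 had the lower ratio of the PD-1 ligands. The paper states that it removed cells above these limits. WT macrophages had a median of 11483 UMIs and TSK macrophages one of 7493.5. Markers of other classes in macrophages also differed. The 5 monocyte markers summed to 1411 CPM, with a UMI in 78.5% of WT macrophages, and to 314 CPM, in 49.2% of TSK macrophages. The 6 cancer cell markers, 2 of them at 0 in both, summed to 10.3 CPM for WT and 103 CPM for TSK cells, and the cycling markers to 185 and 375 CPM. Their part in the macrophage values was not tested.

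**Figure D4:**
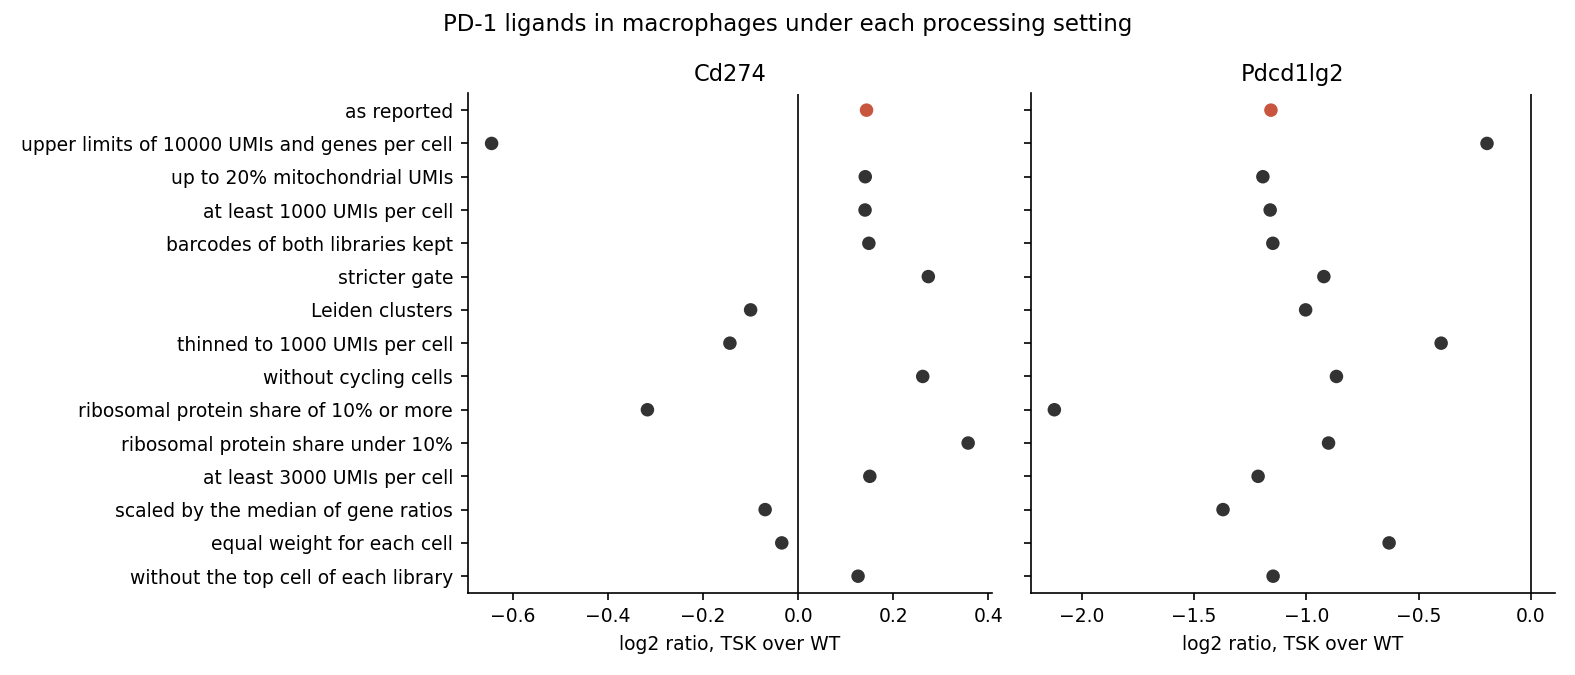
The log2 ratio of TSK over WT for Cd274 (left) and Pdcd1lg2 (right) in macrophages as reported (orange) and under 14 other settings (black), with 0 as the vertical line and a separate scale for each gene. Pdcd1lg2 stays below 0 in all, between −2.12 and −0.20, and Cd274 lies on both sides of 0, between −0.64 and 0.36.

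The Pdcd1lg2 values also differed between clusters of macrophages. In macrophages of the cluster led by Arg1, C1qb and Ccl24, Pdcd1lg2 was at 143 CPM (243 UMIs, 97 WT cells) and 62.0 CPM (108 UMIs, 186 TSK cells), and its log2 ratio was −1.21 (−1.55 to −0.88). In the cluster with Cd86, Mrc1 and MHC class II genes among its leaders, it was at 95.8 CPM (72 UMIs) and 106 CPM (38 UMIs), a log2 ratio of 0.14 (−0.46 to 0.73). This second cluster held 34.9% of WT and 18.5% of TSK macrophages. The cluster led by Ccl8, F13a1 and Mrc1 held 12.9% and 21.2%, with Pdcd1lg2 at 18.0 CPM (6 UMIs) and 7.63 CPM (5 UMIs). Cd274 in the Arg1 cluster was at 176 and 241 CPM (0.46, 0.24 to 0.67). Havcr2 there was at 51.3 and 100 CPM (0.97, 0.59 to 1.36). In the second cluster Havcr2 was at 82.5 and 86.3 CPM (0.07, −0.61 to 0.71), and in the Ccl8 cluster it had 1 and 2 UMIs. Entpd1 was higher in the TSK library in the Arg1 cluster (0.55, 0.26 to 0.83), the second (0.51, 0.20 to 0.82) and the Ccl8 cluster (0.59, 0.10 to 1.10). In the cluster led by Satb1 and C1qb Entpd1 had 3 and 2 UMIs. Cd274 had a UMI in 63 of 79 WT macrophages with Pdcd1lg2 (79.7%) and in 46 of 68 such TSK macrophages (67.6%), against 65.1% and 53.8% of all macrophages. All macrophages here include those with Pdcd1lg2. Cells were not matched for depth in this comparison, and the part of depth in it was not tested.

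Monocytes, with Ly6c2, Ccr2, Plac8, Chil3 and Vcan, had as a class less of both PD-1 ligands in the TSK library and more Havcr2. For the ligands this held in monocytes of the Arg1 cluster and not in those of the cluster with MHC class II genes. Cd274 was at 354 CPM (443 UMIs, 322 to 389) in 142 WT and 233 CPM (103 UMIs, 190 to 282) in 82 TSK monocytes, a log2 ratio of −0.61 (−0.93 to −0.29). Pdcd1lg2 was at 68.0 CPM (85 UMIs) and 13.6 CPM (6 UMIs), a log2 ratio of −2.33 (−3.81 to −1.14), and it was the 1 of 6 members 2-fold or more apart, against 18.7% of 6587 genes. A stricter gate gave −0.94 on 42 and 6 UMIs, and in cells at 10% or more ribosomal protein UMIs the ratio was 0.50 on 3 and 5 UMIs. Entpd1 was at 237 and 138 CPM (−0.78, −1.20 to −0.38), and Havcr2 at 98.4 and 163 CPM (0.73, 0.29 to 1.16). The median log2 ratio was 0.23 over all genes and −0.26 over the members. Cd274 went in opposite directions within the class: in monocytes of the Arg1 cluster it was at 512 and 132 CPM (−1.96, −2.64 to −1.34), and in those of the cluster with MHC class II genes at 250 and 356 CPM (0.51, 0.08 to 0.92). Pdcd1lg2 in monocytes of the Arg1 cluster had 71 UMIs for WT and 0 for TSK cells. In those of the cluster with MHC class II genes (80 WT and 43 TSK cells) it had 13 and 6 UMIs. These gave 19.0 and 31.4 CPM, a log2 ratio of 0.72 (−0.96 to 2.22). The 6 cancer cell markers summed to 6.40 CPM in WT monocytes, with 2 at 0, and to 136 CPM in TSK monocytes, also with 2 at 0. The fibroblast markers summed to 46.4 CPM for WT and 190 CPM for TSK monocytes and the cycling markers to 24.0 and 303 CPM. The part of these in the monocyte values was not tested.

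In neutrophils, the class of S100a8 and S100a9, all 4 members with at least 20 UMIs were 2-fold or more lower in the TSK library, with an interval that included 0 for Pdcd1lg2, and most genes of this class were as far apart. Within the neutrophil cluster only Cd274 of the 4 was still 2-fold or more lower. Cd274 had 214 UMIs in 31 WT cells (1970 CPM, 1715 to 2252) and 333 UMIs in 209 TSK cells (442 CPM, 396 to 492), a log2 ratio of −2.16 (−2.41 to −1.90). Entpd1 had 256 UMIs (2356 CPM) and 696 UMIs (923 CPM), a log2 ratio of −1.35 (−1.56 to −1.14). Lgals9 was at 230 CPM (25 UMIs) and 91.5 CPM (69 UMIs), and Pdcd1lg2 at 92.0 CPM (10 UMIs) and 41.1 CPM (31 UMIs, −1.16, −2.23 to 0.03). In neutrophils 59.7% of 5108 genes were 2-fold or more apart, 12.7% of them as lower and 47.0% as higher in the TSK library. The median log2 ratio was 0.32 over all genes and −1.34 over these members. The cancer cell markers summed to 9.20 CPM in WT and 459 CPM in TSK neutrophils, and the cycling markers to 18.4 and 540 CPM; their part in these values was not tested. A single WT cell held 21.5% of the WT Cd274 UMIs. Within the neutrophil cluster (27 WT and 194 TSK cells of the class) Cd274 was at 2035 and 711 CPM (−1.52, −1.77 to −1.26) and Entpd1 at 2427 and 1469 CPM (−0.72, −0.94 to −0.51). Lgals9 there was at 239 and 140 CPM (−0.77, −1.46 to −0.03) and Pdcd1lg2 at 95.5 and 69.1 CPM (−0.47, −1.54 to 0.73). The class sums also take in the neutrophils outside this cluster, and the part of those cells in the class ratios was not tested. The Cd274 ratio ranged from −3.03 with at least 3000 UMIs per cell to −1.31 with the clusters as classes. Entpd1, Lgals9 and Pdcd1lg2 were each less than 2-fold lower with upper limits on UMIs and genes, a stricter gate, the clusters as classes, no cycling cells, cells under 10% ribosomal protein UMIs, or equal weight for each cell. Equal weight gave −0.40 for Entpd1, −0.66 for Lgals9 and −0.04 for Pdcd1lg2, and the clusters gave −0.52, −0.54 and −0.62. In thinned cells Cd274 was found in 65.5% of WT and 34.1% of TSK neutrophils.

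**Figure D5:**
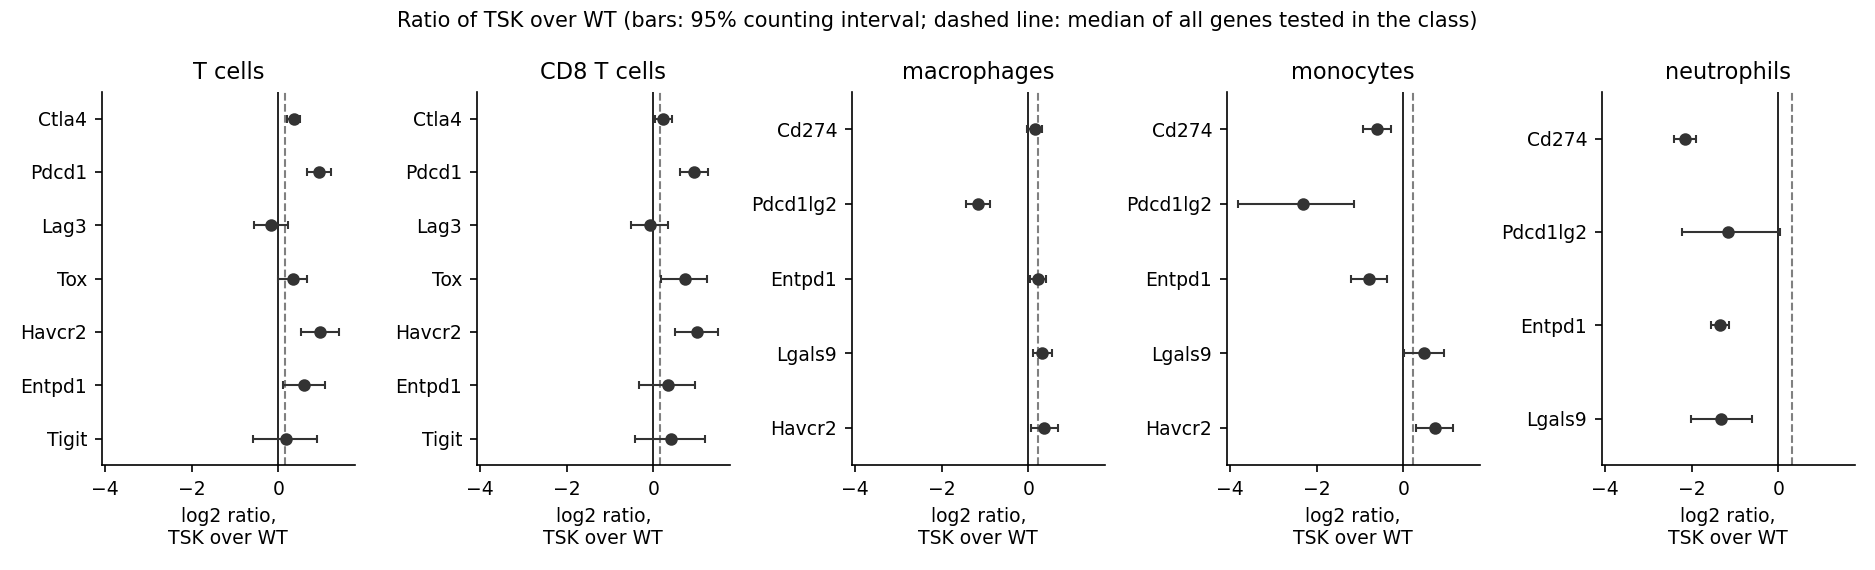
The log2 ratio of TSK over WT for the members in 5 classes of cells, with exact conditional 95% intervals, a solid line at 0 and a dashed line at the median of all genes tested in the class. Pdcd1 and Havcr2 lie to the right of the dashed line in T and CD8 T cells, Pdcd1lg2 to the left in macrophages and monocytes, and all 4 members to the left in neutrophils.

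Dendritic cells carried both PD-1 ligands at like levels in the libraries, in 15 WT and 14 TSK cells. Cd274 was at 318 CPM (61 UMIs, 243 to 408) and 358 CPM (26 UMIs, 234 to 525), and Pdcd1lg2 at 182 CPM (35 UMIs, 127 to 254) and 193 CPM (14 UMIs, 105 to 324). Their log2 ratios were 0.17 (−0.55 to 0.86) and 0.08 (−0.93 to 1.01). With upper limits on UMIs and genes both ratios were 2.90, on 2 and 22 UMIs of Cd274 and 1 and 11 of Pdcd1lg2.

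Cancer cells, with Lgals7, Cdkn2a and keratins, had little PD-L1, and less in the TSK library. Cd274 had 55 UMIs in 80 WT cells (19.8 CPM, 14.9 to 25.7) and 169 UMIs in 828 TSK cells (6.49 CPM, 5.55 to 7.55), a log2 ratio of −1.61 (−2.05 to −1.14). A single WT cell held 18 of the 55 UMIs, and without the top cell of each library the ratio was −1.14. Without cycling cells, which left 31 WT and 153 TSK cancer cells, it was 0.33 on 4 and 19 UMIs. Of the 5 members with at least 20 UMIs, Cd274 and Entpd1 were lower and Lag3 higher by 2-fold or more, against 19.9% of 14089 genes. Entpd1 had 10 and 28 UMIs (3.60 and 1.08 CPM), and Lag3 6 and 131 UMIs (2.16 and 5.03 CPM, 1.22, 0.06 to 2.69). Lgals9 was at 39.2 CPM (109 UMIs) and 41.4 CPM (1077 UMIs, 0.08, −0.21 to 0.38). Cancer cells held 7.50% of Lgals9 UMIs among WT and 40.6% among TSK cells, against 16.3% and 57.0% of the UMIs of all genes. The median log2 ratio was 0.09 over all genes and 0.08 over the members.

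In endothelial cells and fibroblasts, the intervals of the galectin-9 ratio included 0. Endothelial cells had Lgals9 at 187 CPM (182 UMIs) in 56 WT and 190 CPM (114 UMIs) in 48 TSK cells (0.03, −0.32 to 0.37), and fibroblasts at 88.7 CPM (347 UMIs) and 79.1 CPM (350 UMIs, −0.16, −0.38 to 0.05). Entpd1, which endothelium carries, was at 155 and 137 CPM in endothelial cells (−0.18, −0.58 to 0.22). None of the 3 members tested in endothelial cells was 2-fold apart, against 23.6% of 7494 genes, with medians of 0.38 over all genes and −0.18 over the members. In fibroblasts, Cd274, Pdcd1lg2 and Entpd1 of 7 members were lower by 2-fold or more, against 24.1% of 12296 genes, and the medians were 0.37 over all genes and −0.58 over the members. Fibroblast Cd274 was at 35.8 CPM (140 UMIs) in 180 WT and 16.7 CPM (74 UMIs) in 319 TSK cells (−1.10, −1.52 to −0.68). In fibroblasts of the Col1a2 cluster it was at 27.5 and 24.9 CPM (−0.14, −0.61 to 0.33), and 37 of the 140 WT UMIs came from 9 cells of the cluster led by Acta2 and Rgs5. Pdcd1lg2 had 25 and 3 UMIs in fibroblasts, with a log2 ratio of −3.24, and Entpd1 45 and 19 UMIs (−1.42, −2.28 to −0.62). Of the fibroblasts, 1 of 180 WT cells (0.556%) and 37 of 319 TSK cells (11.6%) were in the unnamed cluster led by Mid1, Grik2 and Hmga2, and 3.89% and 10.3% were in the cluster led by Lgals7 and Krt18. The 6 cancer cell markers, none of them at 0, summed to 52.6 CPM for WT and 331 CPM for TSK fibroblasts, and their part in the fibroblast values was not tested. Endothelial Cd274 was at 67.7 CPM (66 UMIs) and 41.7 CPM (25 UMIs, −0.70, −1.42 to −0.01), and upper limits on UMIs and genes turned its direction (0.51 on 9 and 13 UMIs).

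A list of 68 further checkpoint, costimulation and interferon genes was set beside the members. In T cells 52 of them had at least 20 UMIs, of which 6 were higher and 1 lower by 2-fold or more in the TSK library, against 5.95% of all genes tested higher and 3.85% lower. The list's median log2 ratio was 0.14, close to that of all genes (0.15). The highest ratios were those of Cxcl9 (2.88, 8 and 15 UMIs), a chemokine induced by interferon gamma, Cd80 (2.15, 15 and 17 UMIs), a ligand of CTLA-4, and Cd101 (1.25, 69 and 42 UMIs), a surface protein of terminally exhausted T cells. The lowest were those of Ccr7 (−2.38, 61 and 3 UMIs), a homing receptor of naive and memory T cells, Nr4a2 (−0.90, 1672 and 229 UMIs) and Nr4a3 (−0.54, 1536 and 270 UMIs), factors induced by antigen receptor signaling. Cxcl9 was at 2.43 and 17.8 CPM in WT and TSK T cells, but at 449 and 351 CPM in macrophages. Cd80 was at 4.55 and 20.2 CPM in T cells, 28.8 and 72.0 CPM in macrophages and 341 and 245 CPM in neutrophils. TSK T cells also carried more macrophage and neutrophil marker UMIs, as given above, and their part in the Cxcl9 and Cd80 ratios was not tested.

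In macrophages 41 of the 68 genes had at least 20 UMIs, with 3 higher and 0 lower by 2-fold or more, against 9.02% of all genes tested higher and 2.73% lower. The list's median log2 ratio was −0.05 and that of all genes 0.21. The higher genes were Vsig4 (1.96, 5 and 21 UMIs), a macrophage complement receptor, Cd80 (1.32, 81 and 219 UMIs) and Nectin2 (1.24, 22 and 56 UMIs), a ligand of receptors in the TIGIT family. The lowest ratios were those of Nr4a2 (−0.90), Irf1 (−0.82, 781 and 478 UMIs), the interferon-induced factor upstream of PD-L1, and Cd101 (−0.70, 15 and 10 UMIs). By part of the list, the median log2 ratio in macrophages was lowest for the 8 interferon input genes tested, at −0.29, against 0.21 over all genes. It was 0.45 for further ligands and partner enzymes (14 genes) and 0.22 for costimulatory receptors (2 genes). For further inhibitory receptors (7 genes) it was −0.05 and for T cell factors and memory genes (10 genes) −0.16. In T cells the interferon input genes had a median of −0.015.

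Across 14 points, each a class of at least 20 cells in 1 library, the genes whose levels followed Pdcd1 most closely were Fasl, Cd2, Rab19, Gm16337 and Ifng, with Pearson correlations of log2(CPM + 1) from 0.96 to 0.97. For Cd274 they were Cmtr1, Plekhf2, Zfand3, Irak2 and Cpeb2, from 0.95 to 0.96. These are descriptions over 15013 genes, and the points share 2 libraries and differ in depth.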

How the data were processed

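Single-cell RNA sequencing (10x, 3′ ends) was done on pooled tumors, with 1 library each for WT and TSK. The deposited values are raw UMI counts per gene and barcode, without normalization. The authors made these counts with Cell Ranger (7.1.1 per the labels, 7.1.0 per the file headers) on mm10, and whether intronic reads were counted is not given in the sources used here. The libraries held 21225411 (WT) and 48296765 (TSK) UMIs in 2332 and 4436 barcodes. The 263 barcodes found in both were left out. A cell took a class with at least 3 UMIs from at least 2 of its markers when the UMIs of any other class were at most 50% of them. NK cells needed 2 UMIs of any marker, and T against NK cells, like macrophages against dendritic cells, went to the larger sum. Monocyte markers did not compete with other classes: a macrophage, or a cell without a class, was a monocyte where it had more monocyte than macrophage UMIs. Mixed cells stayed unassigned (252 WT, 784 TSK), and no doublet caller was run. This rule was set after marker sums had been seen. UMIs were summed per class, and genes with at least 20 UMIs were compared. The interval calculation was tested on simulated data. Of the gene identifiers, 32158 of 32285 are in GENCODE M21. Genes named were the 10 members, the 3 highest and 3 lowest ratios of the further list in T cells and macrophages, and 5 genes most like Pdcd1 and Cd274. The members and lists were chosen with earlier results of these data known. Tools were leidenalg 0.10.2 for clusters, scipy 1.17.1 for intervals and pandas 2.3.3, under Python 3.11.15.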

Additional observations from a re-analysis of the deposited data

Results flagged for a closer look

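Entpd1 and Lgals9 were singled out because their ratios of TSK over WT pointed in opposite directions in different classes, with intervals on opposite sides of 0. The difference between classes was not tested. The log2 ratio of Entpd1 was above 0 in T cells (0.60) and macrophages (0.22) and below 0 in monocytes (−0.78), neutrophils (−1.35), cancer cells (−1.74) and fibroblasts (−1.42). The log2 ratio of Lgals9 was above 0 in macrophages (0.32) and monocytes (0.49) and below 0 in neutrophils (−1.33) and in pericytes and smooth muscle (−1.30, 37 and 26 UMIs in 7 and 18 cells), where 1 WT cell held 28 of the 37 UMIs. The requirement of at least 20 UMIs in each class was set after the values had been seen, in place of a 2-fold minimum. It left out Entpd1 in NK cells (2.60, 5 and 11 UMIs), which the 2-fold minimum had listed. The median of all genes in macrophages (0.21) lay within the interval of the Entpd1 ratio there (0.04 to 0.41), and also within that of the Lgals9 ratio. In monocytes the median of all genes was 0.23, beside the 0.49 of Lgals9. With the clusters as classes Lgals9 in neutrophils was at −0.54.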

How the results depend on the processing

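Over 178 alternatives for the 13 main ratios, 142 moved the value by less than its counting error, 35 moved it further and 1 reversed it; the cause was not tested. The ratios of Pdcd1, Ctla4, Havcr2, Tox and Entpd1 in T cells stayed above 0 in all 14 alternatives each. In T cells under 10% ribosomal protein UMIs the log2 ratios were 1.31 for Pdcd1, 0.88 for Ctla4, 1.46 for Havcr2, 0.76 for Tox and 1.16 for Entpd1, and thinning to 1000 UMIs gave 0.56 for Ctla4 and 1.25 for Entpd1. For Cd274 in macrophages the values were −0.64 with upper limits of 10000 UMIs and genes, −0.10 with Leiden clusters, −0.14 thinned, −0.32 and 0.36 at or above and under 10% ribosomal protein UMIs, −0.069 after median scaling of gene ratios and −0.034 when cells had equal weight. For Pdcd1lg2 in macrophages they were −0.20 with upper limits, −0.40 thinned, −0.87 without cycling cells, −2.12 at 10% or more ribosomal protein UMIs and −0.63 with equal weight. Entpd1 in macrophages gave −0.023 with upper limits, 0.96 and 0.50 at or above and under 10% ribosomal protein UMIs and 0.0076 scaled by the median. Lgals9 in macrophages gave −0.067 thinned and −0.51 at 10% or more ribosomal protein UMIs. Cd274 in cancer cells was 0.33 without cycling cells, a reversal on 4 and 19 UMIs, and −1.14 without the top cell of each library. Cd274 in neutrophils was −1.49 with upper limits, −1.69 with the stricter gate, −1.31 with Leiden clusters, −1.51 thinned, −1.54 without cycling cells, −1.61 under 10% ribosomal protein UMIs, −3.03 with at least 3000 UMIs, −2.48 scaled by the median and −1.42 with equal weight. Of 392 alternatives for the other 29 ratios, 2 reversed: Pdcd1lg2 in monocytes at 10% or more ribosomal protein UMIs (0.50) and in fibroblasts with the stricter gate (0.26). The ribosomal protein, depth and top-cell alternatives were chosen after seeing the data. The share of genes 2-fold apart in T cells was 4.31% with at least 50 UMIs and 20.6% with 1 UMI in each library, and 5.40% and 22.7% in CD8 T cells, 7.39% and 20.04% in macrophages, and 11.6% and 32.0% in monocytes. No paired analysis was possible because each genotype had 1 library, so the groups share fewer than 2 replicate numbers. Counts under about 20 UMIs limit the NK cell, dendritic cell and Foxp3-positive T cell values most.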
